A study of Gallus gallus with 9 samples.

Results

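This report describes 194 mRNAs of chicken liver that were higher at 5 weeks of age than at embryonic day 13. Their mean level at 42 weeks stayed near their 5-week mean, though single libraries often did not. They were chosen from 11512 mRNAs that reached 1 FPKM in 3 or more of the 9 libraries, out of 13949 listed mRNAs. FPKM is the number of sequenced fragments divided by transcript length and by the mapped fragments of that library. A gene was a member when its mean log2(FPKM + 1) was at least 2 higher at 5 weeks than at day 13, and when the difference between 42 weeks and 5 weeks was below 1 in size. The members are 1.69% of the mRNAs tested. Both differences chose the members, so their sizes below are a description, and no test of them supports the group.

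RNA was sequenced from the liver of chickens (Gallus gallus) at embryonic day 13, at 5 weeks, which the labels call a stage of rapid growth, and at 42 weeks, which they call adult and aged. Each age has 3 libraries, labelled as biological replicates. No treatment, strain, sex or genotype is given in the sources used here, and nothing says whether animals were pooled. The 5-week libraries enter both differences of the rule.

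In birds the embryonic liver lives on yolk lipid, and after hatching it makes fatty acids from dietary carbohydrate. The mature organ also secretes most plasma proteins, makes bile acids and clears foreign compounds, and in laying hens it makes the precursors of egg yolk under oestrogen. Genes of these tasks are the usual markers of a maturing liver. None could be looked up here: the tables hold Ensembl identifiers without names, and 0 of them matched the reference gene table. The tissue label could not be set against marker genes for the same reason, no gene list could be counted, and no member is given a name or function. For that reason 4 members are given by identifier.

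Most members had low levels in the embryo, though 37 of the 194 had a mean of at least 10 FPKM there and 3 had at least 100, while the median of all tested mRNAs was 8.42 FPKM. At day 13 the mean FPKM of a member had a median of 1.98 (interquartile range 0.317 to 7.10). At 5 weeks the median was 24.1 (10.001 to 73.1), and at 42 weeks it was 23.6 (10.9 to 74.9). The median of the members therefore differed little between 5 and 42 weeks, which the rule favours. In each library the median member had 2.18, 1.68 and 1.75 FPKM at day 13, 19.7, 30.2 and 24.2 FPKM at 5 weeks, and 19.2, 23.6 and 29.5 FPKM at 42 weeks. The 3 embryonic libraries lay apart from the other 6, and the 5-week and 42-week libraries overlapped. On the log2(FPKM + 1) scale, the libraries of the 3 ages in order had a median member of 1.51 ± 0.13, 4.66 ± 0.29 and 4.63 ± 0.29, against 3.22 ± 0.07, 2.75 ± 0.11 and 2.62 ± 0.23 for the median tested mRNA (SD over 3 libraries), so the median member was below the median mRNA before hatching and above it afterwards. In bulk tissue, fewer cells of a type and less RNA per cell cannot be told apart.

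**Figure D1:**
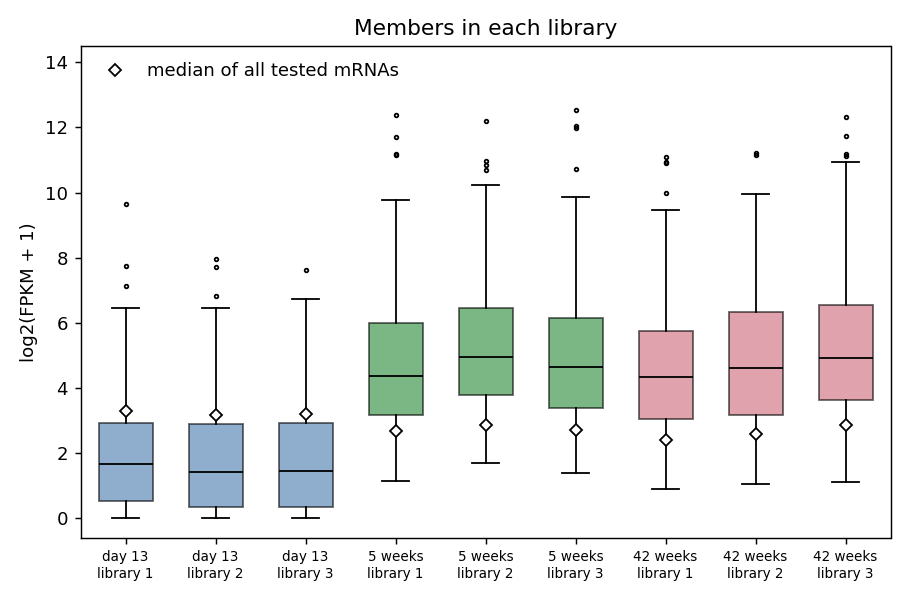
Box plots of log2(FPKM + 1) of the 194 members in each of the 9 libraries (line, median; box, quartiles; whiskers, up to 1.5 times the interquartile range; dots, members beyond), with diamonds at the median of all 11512 tested mRNAs. The median member lies below the diamond in the 3 day-13 libraries and above it in the 6 later ones.

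The size of the difference between 5 weeks and day 13 ranged from 2.01 to 8.08 on the log2(FPKM + 1) scale, with a median of 2.63. On the same FPKM + 1 scale that median is a 6.20-fold difference, which understates the change of genes near 0. Most members lay near the lower limit: 120 had a difference from 2 to 3, 38 from 3 to 4, 28 from 4 to 6, and 8 above 6. The 8 with the largest differences had medians of 0.584 FPKM at day 13, 194 FPKM at 5 weeks and 190 FPKM at 42 weeks, and the 120 with the smallest had medians of 2.35, 17.5 and 16.1 FPKM at these ages.

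Across all tested mRNAs, the median difference between 5 weeks and day 13 was -0.46, so a member at the median stood further from the typical gene than from 0. After all libraries were shifted to the same median, the median was 3.11 for the members and 0.01 for all tested mRNAs, and after quantile normalization it was 2.95 for the members and -0.04 for all.

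**Figure D2:**
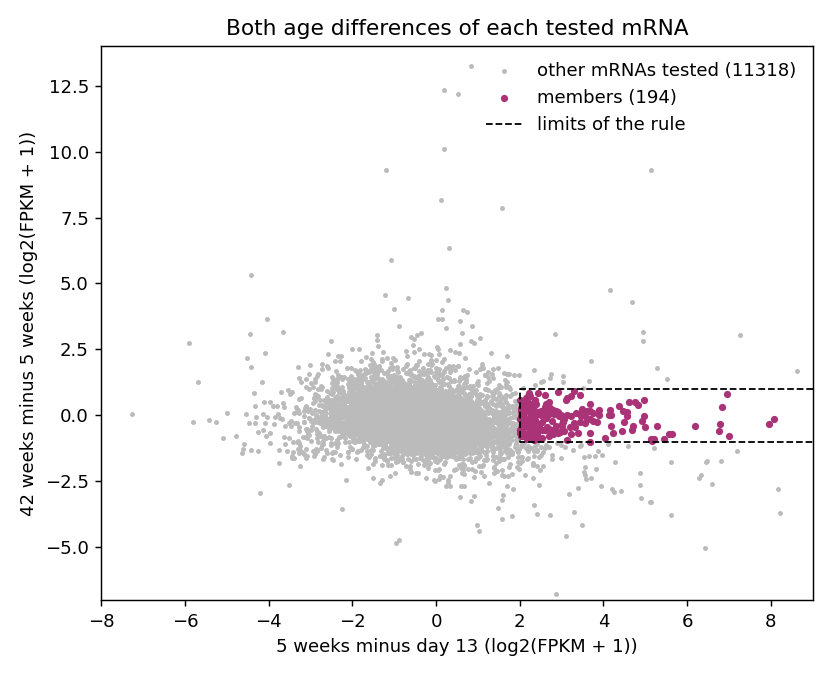
Each dot is 1 of the 11512 tested mRNAs, with the difference between 5 weeks and day 13 on the horizontal axis and that between 42 weeks and 5 weeks on the vertical axis, both in log2(FPKM + 1). The 194 members fill the box drawn by the limits of the rule and thin out toward large values on the right.

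The largest difference belonged to ENSGALG00000023953. It had 0.307, 0.641 and 0.493 FPKM in the day-13 libraries, 373, 450 and 375 FPKM in the 5-week libraries, and 219.8, 364 and 599 FPKM in the 42-week libraries. The later libraries were all far above the embryonic ones, and the 42-week values spread on both sides of the 5-week values. Its log2(FPKM + 1) difference between 5 weeks and day 13 was 8.08 ± 0.30 (SE; adjusted p = 2.8e-08, limma), and that between 42 and 5 weeks was -0.13 ± 0.30, with a 95% interval of -0.78 to 0.52. The SE pools all ages, while the FPKM of this gene had an SD of 191 at 42 weeks and 43.8 at 5 weeks. The later interval may therefore be too narrow. ENSGALG00000017040 had 0.758, 2.10 and 0.987 FPKM at day 13, 461, 615 and 585 FPKM at 5 weeks, and 305, 345 and 820.5 FPKM at 42 weeks. Library 3 of 42 weeks was above every 5-week library, and the other 42-week libraries were below them. The difference between 5 weeks and day 13 was 7.96 ± 0.35 (SE), and that between 42 and 5 weeks was -0.31 ± 0.35 (95% interval -1.08 to 0.46).

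The lower edge of the later difference was held by ENSGALG00000021627 and ENSGALG00000013993. ENSGALG00000021627 had 12.1, 10.2 and 16.9 FPKM at day 13, 213, 169.5 and 151 FPKM at 5 weeks, and 86.3, 62.7 and 126 FPKM at 42 weeks. Each 42-week library was below each 5-week library and above each embryonic one. The difference between 42 and 5 weeks was -0.99 ± 0.27 (SE), and its adjusted p of 0.017 (limma) was under 0.05 while its size missed the limit of 1 used for a call. ENSGALG00000013993 had 17.4, 9.33 and 12.1 FPKM at day 13, 568, 438 and 451 FPKM at 5 weeks, and 174, 298 and 282 FPKM at 42 weeks, again with no overlap between ages. Its difference between 42 and 5 weeks was -0.97 ± 0.26 (SE; adjusted p = 0.017, limma). Without library 3 of 42 weeks these differences were -1.25 and -1.08, and both then passed as lower, so neither gene meets the rule without that library. The same held without library 2 of 5 weeks (-1.02 for ENSGALG00000021627 and -1.04 for ENSGALG00000013993) and without library 3 of 5 weeks (-1.10 and -1.02), and for ENSGALG00000013993 also without library 2 of 42 weeks (-1.12).

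**Figure D3:**
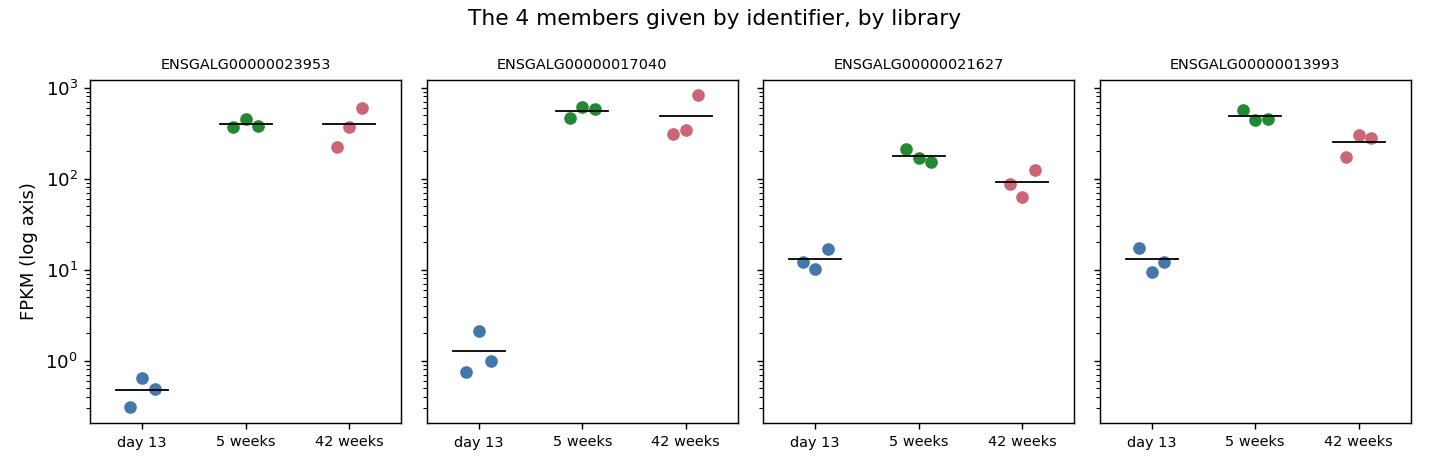
FPKM on a log axis of the 4 members given by identifier, with 1 point per library and a line at the mean of each age. The 2 left panels show the largest differences between 5 weeks and day 13, and the 2 right panels show the lowest differences between 42 and 5 weeks, where the 42-week points lie below the 5-week points.

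The embryonic level divided the members. In the embryo 13 members were listed at 0 in all 3 libraries, which stands for less than 0.1 FPKM. These had a median of 5.08 FPKM at 5 weeks (range 3.64 to 119.8) and 4.40 FPKM at 42 weeks (range 1.79 to 95.5). A further 67 had a mean below 1 FPKM at day 13, with medians of 0.288 FPKM at day 13, 8.73 FPKM at 5 weeks and 10.5 FPKM at 42 weeks. A mean of 1 to 10 FPKM at day 13 was found for 77 members, with medians of 3.59 FPKM at day 13, 29.1 FPKM at 5 weeks and 26.9 FPKM at 42 weeks. The last 37 had at least 10 FPKM at day 13 and had medians of 20.3 FPKM at day 13, 159 FPKM at 5 weeks and 162 FPKM at 42 weeks. In this order the members are 18.8%, 11.8%, 1.35% and 0.715% of the tested mRNAs in the same classes. The day-13 level is a term of the first difference, so this order follows in part from the rule. At least 1 FPKM in all 3 embryonic libraries was found for 103 members (53.1%), which rose from a measurable level. The other 91 passed the filter on low values only through the later ages, where they are high by the rule. All 194 members had at least 1 FPKM in at least 3 of the 6 later libraries, and 191 had it in all 6.

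By level at 5 weeks, 49 members had a mean below 10 FPKM, 103 had 10 to 100, 38 had 100 to 1000, and 4 had at least 1000. These are 0.661%, 2.84%, 8.94% and 7.55% of the tested mRNAs in the same ranges. The median difference between 5 weeks and day 13 was 2.30, 2.71, 3.68 and 5.19 in these 4 ranges. The 5-week level is a term of that difference, so the trends with level follow in part from the rule. Across the 194 members, the mean log2 values at 42 and 5 weeks had Pearson's r of 0.975, and those at 5 weeks and day 13 had 0.802. Both are descriptions over genes that share the same libraries, and the limits of the rule bear on both. Holding the later difference below 1 in size favours a high r between 42 and 5 weeks, so these values are not compared.

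The members held 0.439%, 0.312% and 0.264% of the summed FPKM of the mRNA table in the day-13 libraries, 4.93%, 5.03% and 5.42% in the 5-week libraries, and 4.21%, 4.59% and 6.48% in the 42-week libraries. The means over the 3 libraries were 0.338% ± 0.090 for day 13, 5.13% ± 0.25 for 5 weeks and 5.09% ± 1.22 for 42 weeks (SD). The direction of the first step follows from the rule. At 42 weeks the spread came from library 3, which lay above every 5-week library while the other 42-week libraries lay below them. The shares have unlike denominators. The whole table summed to 535744, 512028 and 533464 FPKM at 5 weeks and 402779, 428109 and 471062 at 42 weeks. The members summed to 26438, 25754 and 28892 FPKM at 5 weeks and 16942, 19649 and 30531 at 42 weeks. The signal was concentrated: 4, 8 and 12 members held 50% of the members' summed FPKM in the day-13 libraries, 4, 7 and 4 in the 5-week libraries, and 7, 10 and 6 in the 42-week libraries. Of the 100 most abundant mRNAs of each library, 1, 0 and 0 were members at day 13, 7, 11 and 7 at 5 weeks, and 8, 10 and 13 at 42 weeks.

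The most abundant member took 0.999%, 0.922% and 1.10% of the summed FPKM at 5 weeks. It had 803, 111 and 18.4 FPKM at day 13, 5351, 4719 and 5881 FPKM at 5 weeks, and 1974, 2285 and 5135 FPKM at 42 weeks. Its embryonic libraries had an SD of 2.69 log2 units, the largest at that age among members, and all were below the later ones. Without it the members held 0.282% of the summed FPKM at day 13, 4.12% at 5 weeks and 4.39% at 42 weeks.

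**Figure D4:**
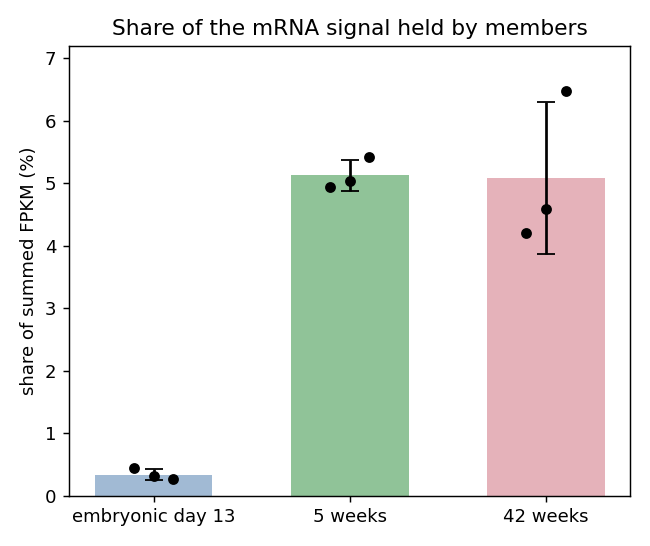
Share of the summed FPKM of the mRNA table held by the 194 members, with bars at the mean, error bars at the SD and 1 point per library (n = 3 per age). The day-13 points lie below 0.5%, the 5-week points near 5%, and the 42-week points between 4.21% and 6.48%.

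In the limma fit to all 9 libraries, 193 of 194 members were called higher at 5 weeks than at day 13 (adjusted p under 0.05 and a log2 difference of at least 1), where 7.14% of all tested mRNAs were. For the remaining member the adjusted p was 0.051 by limma. At 42 weeks against day 13 all 194 were called higher, where 6.86% of all tested mRNAs were. The 5-week libraries lay above the day-13 libraries without overlap for 193 members, against 16.4% of all tested, and the 42-week libraries did so for 190, against 11.9%. The rule used these contrasts, and nothing is read from the counts. A stricter reading, at least 2 log2 units above the day-13 mean in every one of the 6 later libraries, was met by 81 members (41.8%), against 1.02% of all tested mRNAs. It was met in all 3 libraries of 42 weeks by 88 members, against 1.65% of all tested, and in all 3 of 5 weeks by 132, against 1.87%. These counts too come from contrasts the rule used.

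The later level carried wide intervals. The difference between 42 and 5 weeks had a median of -0.20 among members (range -0.99 to 0.93), and 73 members were above 0 and 121 below. Over all tested mRNAs the median was -0.17 and 38.1% were above 0, against 37.6% of the members. After quantile normalization the members' median was 0.05, so its sign depends on the scaling. The difference was below 0.5 in size for 117 members (60.3%) and for 59.1% of all tested mRNAs. By the rule every member is below 1 in size, against 88.1% of all tested, so these shares are not like for like. The rule bounds the estimate, not its error: the 95% interval of limma stayed inside -1 to 1 for 64 members. It reached -1 or below for 98 members and 1 or above for 51, and 19 of these reached both. These intervals pool the spread of all 3 ages, whose median SD among members was 0.21, 0.37 and 0.69 in order. They are thus too narrow for the later difference of a member with such spreads. By construction 0 members were called between 42 and 5 weeks, where 11.3% of all tested mRNAs were called in either direction. On the adjusted p of limma alone, 4 were higher, against 10.3% of all tested, and 9 lower, against 21.9%, and 31 (15.98%) had an unadjusted p under 0.05, against 43.6% of all tested. The limit on this difference lowers the members' counts by construction. Their SEs were also larger, with a median of 0.34 against 0.20 for all tested mRNAs, which lowers such counts too. The part of each was not tested. The 5-week and 42-week libraries overlapped for 181 members (93.3%), against 58.6% of all tested mRNAs. The limit and a wide spread within an age both favour such overlap. Of the remaining members, 5 lay above the 5-week libraries in every 42-week library, against 13.5% of all tested mRNAs, and 8 lay below, against 27.9%.

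Single 42-week libraries departed from the 5-week mean in both directions. Library 1 of 42 weeks was within 1 log2 unit of the 5-week mean for 133 members, library 2 for 154 and library 3 for 148, which are 68.6%, 79.4% and 76.3% of the members. For all tested mRNAs these shares were 81.6%, 83.6% and 87.8%. In library 1, 10 members (5.15%) were at least 1 above the 5-week mean and 51 (26.3%) at least 1 below, against 3.79% and 14.6% of all tested mRNAs. In library 2, 16 members (8.25%) were above and 24 (12.4%) below, against 6.02% and 10.4% of all tested. In library 3, 29 members (14.9%) were above and 17 (8.76%) below, against 7.83% and 4.41% of all tested. Members and all tested mRNAs leaned the same way in each library. All 3 libraries were within 1 log2 unit for 85 members (43.8%), against 72.4% of all tested mRNAs. No 42-week library was within that range for 8 members (4.12%), close to the 5.22% of all tested mRNAs.

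Spread between libraries of the same age is not a limit of the rule. It comes from the same values, so it is not independent of the choice. For the 3 ages in order its median SD in log2 units was 0.21, 0.37 and 0.69 among members, against 0.15, 0.19 and 0.29 among all tested mRNAs. An SD of at least 0.5 at 42 weeks was found for 134 members (69.1%) and for 18.0% of all tested mRNAs. The size of the gap varied with level. Among genes below 10 FPKM at 5 weeks, the median SD at 42 weeks was 0.73 for members and 0.29 for all tested, among those with 10 to 100 FPKM it was 0.69 and 0.30, and among those with 100 to 1000 FPKM it was 0.65 and 0.37. At 1000 FPKM and above, where there are 4 members, it was 0.69 and 0.58. Below 10 FPKM the sets are not matched in level, since the lowest 5-week mean was 3.64 FPKM among members and 0 among all tested. Genes that also rose by 2 but then changed had like spreads, with medians at 42 weeks of 0.55 for the 87 that were at least 1 lower and 0.89 for the 22 that were at least 1 higher. The wide spread is thus not particular to the members. With 3 libraries per age, no test over samples was made of this difference.

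At 42 weeks library 3 stood highest for most members. The median member deviated from its 42-week mean by -0.40 in library 1, -0.14 in library 2 and 0.57 in library 3, against -0.19, -0.04 and 0.23 for all tested mRNAs. Library 3 was the highest of its age for 137 members (70.6%) and the lowest for 34 (17.5%), against 71.4% and 11.9% of all tested. Library 3 was thus the highest about as often among members as among all tested mRNAs, but more often the lowest, and the members' steps were wider. At 5 weeks library 2 was the highest for 114 members (58.8%) and for 54.4% of all tested mRNAs, with a median deviation of 0.20 for members and 0.10 for all tested. Summed FPKM of the whole mRNA table was 402779, 428109 and 471062 in the 42-week libraries. The part of library 3 in the members' levels was not tested beyond leaving it out.

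**Figure D5:**
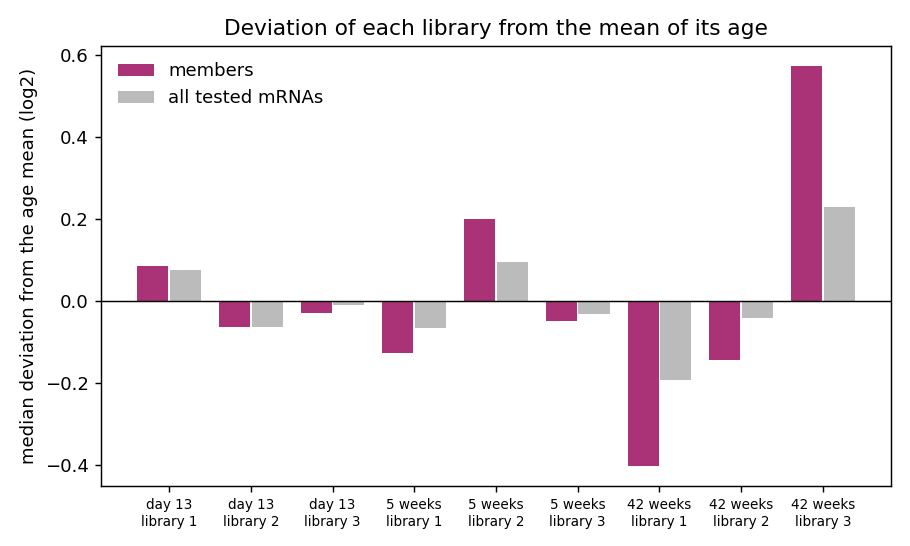
Median deviation of each library from the mean of its own age, in log2(FPKM + 1), for the 194 members and for all 11512 tested mRNAs. At 42 weeks library 1 lies lowest and library 3 highest in both sets, with larger deviations among members (-0.40 and 0.57) than among all tested mRNAs (-0.19 and 0.23).

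Membership rested on that library more than on any other when each of the 9 was left out in turn. Without library 3 of 42 weeks, 49 of the 194 members no longer met the rule, 36 because the later difference fell to -1 or below and 13 because it reached 1 or above. Leaving out any other library removed between 3 and 29 members. All 9 omissions kept 103 members in the rule.

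The limits cut through a continuous cloud. The member nearest the lower limit had a difference of 2.01 between 5 weeks and day 13, and the nearest gene outside had 1.998. Within 0.1 of that limit lay 26 members and 22 genes just outside. For the difference between 42 and 5 weeks, the nearest values were -0.99 inside and -1.04 outside at the low limit, and 0.93 inside and 1.04 outside at the high one. Of the 303 tested mRNAs that were at least 2 higher at 5 weeks, 194 (64.0%) are members, 87 were at least 1 lower at 42 weeks and 22 at least 1 higher. The limit of 1 on the later difference was met by 88.1% of all tested mRNAs, a larger share than the 64.0%. The members had a median of 24.1 FPKM at 5 weeks and 1.98 at day 13, against 49.4 at 5 weeks and 4.23 at day 13 for the 87, and 41.7 at 5 weeks and 0.458 at day 13 for the 22.

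Values in libraries that the choice did not use came from applying the rule to the libraries with 2 of the 3 replicate numbers and reading the libraries with the remaining number. The rule chose 223, 178 and 141 genes when replicate 1, 2 or 3 was held out, and 180, 158 and 121 of these are members. In this paragraph, all tested stands for the 10830, 10697 and 10633 mRNAs tested in these rounds. In the held-out libraries, the difference between 5 weeks and day 13 was at least 2 for 63.2%, 84.8% and 74.5% of the chosen genes, against 2.58%, 3.52% and 2.85% of all tested. It was at least 1 for 96.0%, 96.6% and 97.2% of the chosen genes, against 7.10%, 9.32% and 7.66% of all tested. Each of these values is a difference between single libraries, and over the 3 rounds every library also served in choosing. The shares are therefore a description and no test of the rise. The difference between 42 and 5 weeks was below 1 in size for 63.2%, 64.04% and 66.7% of the chosen genes, against 81.7%, 80.8% and 85.0% of all tested. Beside the rise at the rule's own limit of 2, this share was the same with replicate 1 held out. It was lower with replicate 2 or 3 held out. Both limits were met together by 38.6%, 53.9% and 49.6% of the chosen genes, against 1.01%, 1.57% and 1.68% of all tested. The median later difference of the chosen genes in the held-out libraries was -0.42, -0.36 and 0.51, against -0.31, -0.32 and 0.08 for all tested mRNAs, so the sign turned with replicate 3, which holds library 3 of 42 weeks, in both sets.

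Long non-coding RNAs (lncRNAs) form a second table that the rule did not use. Of 2213 lncRNAs that reached 0.5 FPKM in 3 or more libraries, 8 were at least 2 higher at 5 weeks than at day 13, and 1 of these also stayed within 1 log2 unit at 42 weeks. This is 0.0452% of the lncRNAs tested, beside 1.69% of the mRNAs. The lncRNA TU63378 had 1.85, 1.74 and 1.41 FPKM at day 13, 52.4, 31.2 and 68.8 FPKM at 5 weeks, and 64.4, 60.4 and 84.1 FPKM at 42 weeks. All later libraries were above the embryonic ones, and those of 5 and 42 weeks overlapped. Its log2 difference between 42 and 5 weeks was 0.50, with a 95% interval of -0.19 to 1.20. The tables differ in their filter and were tested separately, so the shares are given side by side without a test. A transcript near either filter limit at 5 weeks cannot be 2 higher on the log2(FPKM + 1) scale. The lncRNA filter admitted lower levels, so the shares are not like for like.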

How the data were processed

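Liver RNA was measured in 9 libraries, 3 per age, grouped by the sample titles. Per the labels' protocols, RNA was isolated with TRIzol and sequenced from TruSeq libraries. The tools named, per the submitters' processing notes and with no role attached, are DESeq2, HISAT, Cufflinks 2.2.1 and StringTie 1.3.3. Genome build, annotation and read depth are not stated in the sources used here. Both tables the authors deposited hold log2 values of FPKM, read as log2(FPKM + 1), since the smallest mRNA value above 0 is 0.100 FPKM; the same offset was assumed for lncRNAs. With no depth, error is the spread between libraries, which may be partly technical.

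The members and lists were chosen with earlier results of these data known. The gene and cell type lists planned by symbol could not be used, and the 4 members printed by identifier have the largest differences between 5 weeks and day 13 and the lowest between 42 and 5 weeks. Tests used limma 3.58.1 (R 4.3.3) with 1 mean per age and a mean-variance trend over all 11512 mRNAs or 2213 lncRNAs, two-sided, with Benjamini-Hochberg adjustment. SEs pool the spread of all ages, so they understate the error of the later difference for genes that spread most at 42 weeks. The fit was run on simulated normal values with the same spread at every age and known changes against day 13 only. That run does not bear on the later difference or on spreads that differ by age. Summaries and figures were made in Python with pandas and matplotlib. The alternatives were other scalings, filters, offsets, limits and fits, and leaving out each library.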

Additional observations from a re-analysis of the deposited data

How the results depend on the processing

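The number of genes that meet the rule was 342 after median scaling, 284 after quantile normalization and 345 with an offset of 0.1 FPKM. With a limit of 0.5 on the later difference it was 117, and as deposited it was 194. Of the 194 members, 192, 188, 188 and 117 were among them in that order. Median scaling shifts the difference between 5 weeks and day 13 upward for all genes, and the narrower limit can only remove genes. Leaving out single libraries gave 152 to 207 genes, with 152 without library 3 of 42 weeks. Members called higher at 5 weeks or 42 weeks than at day 13 numbered between 188 and 194 under all alternatives run. These counts follow largely from the rule. In the main fit 7.14% of all tested mRNAs were called higher at 5 weeks and 6.86% at 42 weeks. Between 42 and 5 weeks, where the rule allows no call, quantile normalization gave 4 members higher, the offset of 0.1 FPKM gave 2 lower, and the adjusted p alone gave 4 higher and 9 lower. Leaving out single libraries gave 0 to 10 higher and 0 to 31 lower, with the 10 and 31 without library 3 of 42 weeks. Apart from the adjusted p alone, the shares of all tested mRNAs called in these settings are not given here. Nothing about the members is read from these counts. The cause of the changes was not tested. Without the most abundant member the share of summed FPKM at 5 weeks was 4.12%. With the replicate number as a block, 0 members were called in either direction between 42 and 5 weeks. The replicate numbers share only a number: deviations of same-numbered libraries correlated at -0.05 to 0.14, and in 6 of 18 cases a library correlated best with its own number. The block left 194 members called at 42 weeks against day 13. Depth is unknown, and values listed at 0 are below 0.1 FPKM.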
